A study of Homo sapiens with 6 samples.

Results

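The miR-106b~25 cluster is a group of 3 microRNA (miRNA) precursors, mir-106b, mir-93 and mir-25, that lie inside the *MCM7* gene, and its 6 mature strands were followed here in small RNA libraries of A549 cells with and without *MIR21*. A549 is an established human lung adenocarcinoma line. The members were chosen by name: miR-106b-5p, miR-106b-3p, miR-93-5p, miR-93-3p, miR-25-3p and miR-25-5p are 6 of 2588 mature miRNA names in the deposited table, each on 1 row, and all 6 passed the filter on low values (3 or more of the 6 libraries with a value of 1 or higher). The series holds 3 libraries of parental A549 cells (Ctrl) and 3 of A549 cells in which the *MIR21* locus was deleted with Cas9 and a pair of guide RNAs (*MIR21*-KO). All cells were grown in DMEM with serum and harvested 48 h after seeding. The deletion lines were raised from single sorted cells, and how many clones stand behind the 3 *MIR21*-KO libraries is not given in the sources used here. The study describes its replicates in general as biological, but no label says that the 3 libraries of a group came from separate cultures, so p-values measure only the spread between these libraries, which may be technical.

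A miRNA gene is transcribed as part of a longer primary transcript, from which Drosha cuts a hairpin and Dicer a short duplex. One strand of the duplex, named 5p or 3p after its arm of the hairpin, is usually kept by Argonaute and guides it to messages that pair with the seed near the 5′ end of the strand, while the other strand is mostly degraded. *MCM7* encodes a subunit of the replicative helicase, its transcription is driven by E2F factors, and the miR-106b~25 cluster in its intron is known for targeting the cell cycle inhibitor *CDKN1A* and the pro-apoptotic *BCL2L11*, which made it a candidate oncogenic cluster in several tumours. It is a paralogue of miR-17~92 and miR-106a~miR-363, with which it shares seeds.

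In the GENCODE 29 annotation (GRCh38), *MCM7* lies on the minus strand of chromosome 7, at chr7:100092728-100101940. MIR106B, at chr7:100093993-100094074, comes first in the direction of transcription, followed by MIR93 at chr7:100093768-100093847 and MIR25 at chr7:100093560-100093643. The 3 hairpins span 515 bases, all inside an intron of 771 bases (chr7:100093402-100094172) that 7 of the 13 annotated *MCM7* transcripts have, and no transcript has an exon over them. The mature sequences are shown because their seeds decide which other miRNAs the members can be compared with. They are from RefSeq (GRCh38.p14), written 5′ to 3′, and capitals mark the seed, bases 2 to 8.
hsa-miR-106b-5p: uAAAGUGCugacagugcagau
hsa-miR-93-5p: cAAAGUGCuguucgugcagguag
hsa-miR-106b-3p: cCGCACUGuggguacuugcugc
hsa-miR-93-3p: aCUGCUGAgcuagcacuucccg
hsa-miR-25-3p: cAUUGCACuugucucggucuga
hsa-miR-25-5p: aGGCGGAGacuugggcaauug

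miR-106b-5p and miR-93-5p share the seed of the miR-17 family, AAAGUGC, which 8 mature miRNAs of the table carry. The seed of miR-25-3p, AUUGCAC, is found in 6. The seeds of miR-106b-3p, miR-93-3p and miR-25-5p are in no other entry of the RefSeq table. The seed relatives with the highest mean values in these libraries, miR-17-5p, miR-20a-5p and miR-92a-3p of miR-17~92 and miR-92b-3p of a gene of its own, differ from the members outside the seed, as the following lines show.
hsa-miR-17-5p: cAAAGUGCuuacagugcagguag
hsa-miR-20a-5p: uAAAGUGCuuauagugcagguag
hsa-miR-92a-3p: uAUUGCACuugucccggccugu
hsa-miR-92b-3p: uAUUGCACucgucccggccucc

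Aligned from the 5′ end, miR-106b-5p differs from miR-17-5p and from miR-20a-5p at 3 of 21 positions each. It differs from miR-93-5p, its partner in the cluster, at 5 of 21. miR-93-5p differs from miR-17-5p and from miR-20a-5p at 4 of 23 positions each, and miR-25-3p from miR-92a-3p at 4 of 22. How reads that suit more than 1 miRNA were counted is not given in the sources used here, so the split between such relatives is uncertain to that extent.

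The libraries held 6180032 to 9768152 miRNA reads in Ctrl, against 5577287 to 8671618 in *MIR21*-KO. The deposited values are counts per 1000000 reads (CPM) scaled by the trimmed mean of M-values (TMM), a factor per library that sets most miRNAs to a common level. miR-21-5p had values of 1202265, 1144116 and 957134 in Ctrl, against 150, 81.3 and 184 in *MIR21*-KO, and miR-21-3p of 494, 601 and 2637 in Ctrl, against at most 0.288 in *MIR21*-KO, so every library carried the miRNA state that its label names. The first principal component of the 332 miRNAs whose mean value reached 10 held 64.3% of the variance and did not separate the conditions. It put Ctrl 1, Ctrl 2 and *MIR21*-KO 3 on one side (the first library set) and Ctrl 3, *MIR21*-KO 1 and *MIR21*-KO 2 on the other (the second library set), also when the members and the lists used below were left out (308 miRNAs). The labels name Novogene as the maker and sequencer of all 6 libraries and give no batch, and since the sets were read from the values, differences between them are descriptions with no test. Of the marker lists, all 5 epithelial markers (the miR-200 family) had reads, with sums of 1374 to 2171 in Ctrl and 879 to 1269 in *MIR21*-KO, so this sum did not overlap between the conditions, while its sets did overlap. Its largest part, miR-200b-3p, was at 1953, 1193 and 1343 in Ctrl and at 530, 577 and 1038 in *MIR21*-KO. Of all miRNAs that passed the filter, 6.59% were likewise lower in every *MIR21*-KO library. The other epithelial markers each overlapped between the conditions, and miR-200c-3p had the higher mean in *MIR21*-KO (73.0, against 42.8 in Ctrl). The summed level of the 5 blood cell markers was 9.23 to 42.7 in the first set and 2.26 to 4.90 in the second, that of the hepatocyte marker miR-122-5p 51.9 to 141 and 7.90 to 16.2, and that of the pair of smooth muscle and fibroblast markers 610 to 1230 and 246 to 489. The muscle list was at 5.93 to 71.1 with overlapping sets, and the neuronal marker miR-124-3p did not exceed 0.811. The part of these markers in the results was not tested.

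The cluster as a whole stayed at a similar level in the deposited values. Its 6 strands summed to 7416, 5799 and 5918 in Ctrl (6378 ± 901, SD, n = 3) and to 6174, 6150 and 5830 in *MIR21*-KO (6051 ± 192, SD, n = 3). The *MIR21*-KO libraries all lay within the range of the Ctrl libraries. In RNA from whole cultures, fewer cells with a miRNA and less of it per cell cannot be told apart. Levels were ordered alike at both ends in all 6 libraries: miR-25-3p was the most abundant member in each, miR-106b-5p the fourth, miR-25-5p the fifth and miR-93-3p the least abundant. Ranks 2 and 3 were held by miR-106b-3p and miR-93-5p, which changed places between the library sets. All members are 21 to 23 bases long. Adapters join some sequences more readily than others, and reads carry no molecular identifiers, so the order is one of reads and not of molecules.

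miR-25-3p, the strand with the miR-92a-like seed, had values of 5414, 3637 and 2518 in Ctrl and of 3174, 3134 and 4148 in *MIR21*-KO, so the groups overlapped. miR-25-5p, the passenger strand of the same hairpin, was at 25.9, 24.6 and 40.2 in Ctrl and at 29.2, 27.3 and 11.8 in *MIR21*-KO, again with overlap. The lowest value of this strand, in *MIR21*-KO 3, rested on 91 reads and the highest, in Ctrl 3, on 285.

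miR-106b-5p, which targets *CDKN1A*, was at 135, 308 and 690 in Ctrl and at 579, 639 and 135 in *MIR21*-KO. Its lowest Ctrl and lowest *MIR21*-KO library were almost level, and the spread within a condition was far wider than the distance between conditions. The opposite strand, miR-106b-3p, was at 1444, 1455 and 750 in Ctrl and at 948, 835 and 1223 in *MIR21*-KO. Here the low libraries were those in which miR-106b-5p was high.

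miR-93-5p, the guide strand of the middle hairpin, was at 394, 367 and 1898 in Ctrl and at 1422, 1495 and 309 in *MIR21*-KO. Its highest library exceeded its lowest 6.15-fold. miR-93-3p, the rarest member, was at 3.74, 5.95 and 22.9 in Ctrl and at 22.1, 19.3 and 2.99 in *MIR21*-KO, from 14 to 307 reads. The same 3 libraries were high for both strands of mir-93, 1 of Ctrl and 2 of *MIR21*-KO.

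**Figure D1:**
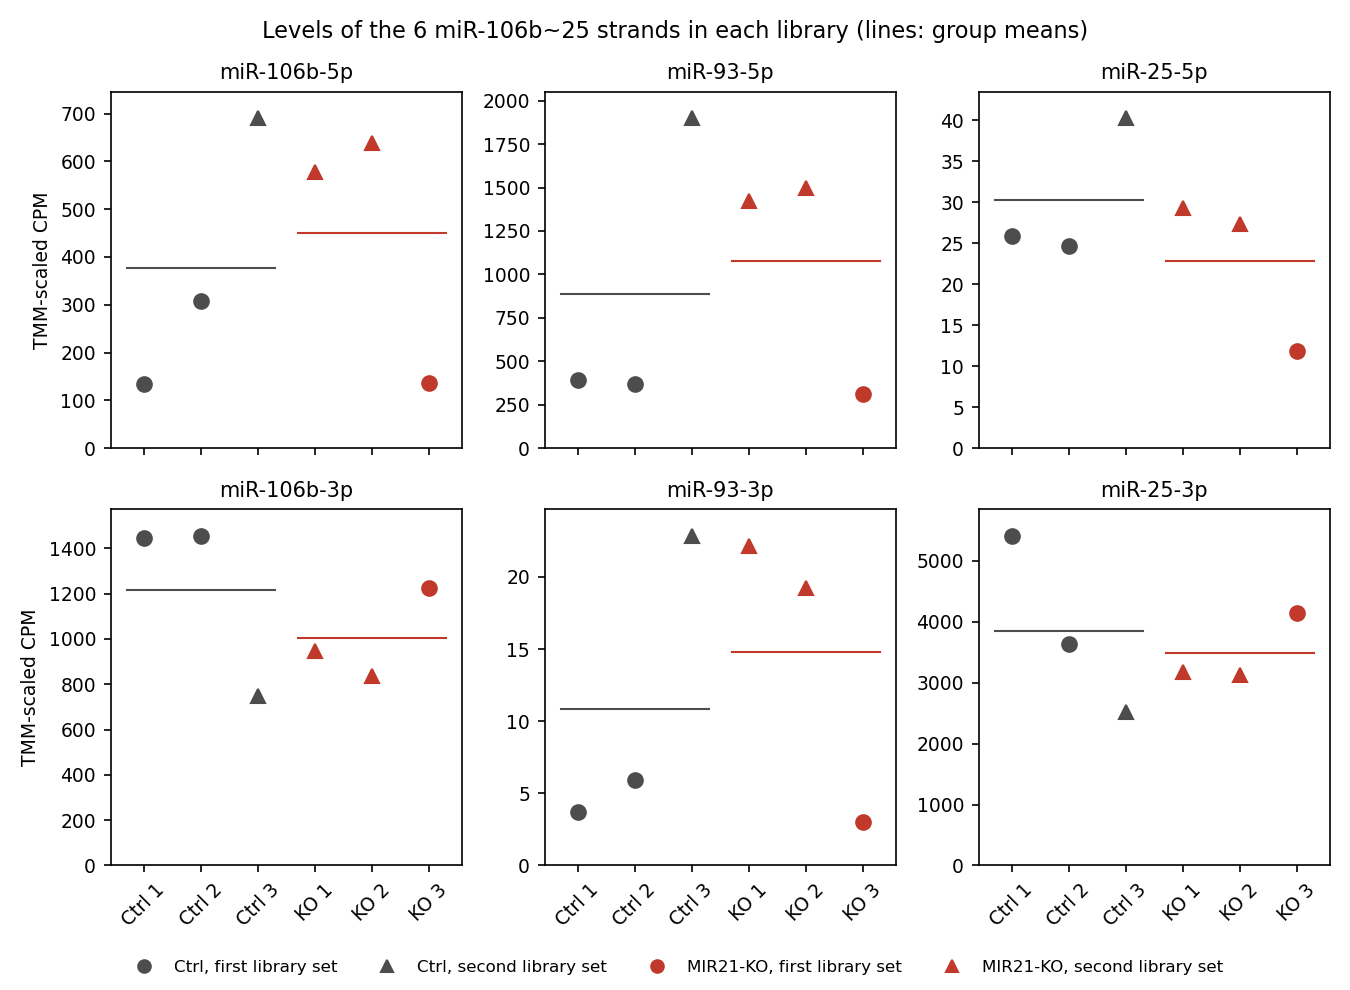
Each panel plots 1 mature strand, with the 6 libraries on the x axis and TMM-scaled CPM on a linear y axis from 0; grey marks Ctrl, red *MIR21*-KO, circles the first and triangles the second library set, and lines the group means (n = 3). Circles and triangles do not mix in any panel, while grey and red do: triangles are above circles for both strands of mir-93, for miR-106b-5p and for miR-25-5p, and under them for miR-106b-3p and miR-25-3p.

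The first question was whether the members differed between *MIR21*-KO and Ctrl. None did by the linear model fitted over all 607 miRNAs that passed the filter (limma on log2(value + 1), Benjamini-Hochberg adjusted p under 0.05). 0 of 6 members passed, and 0 of 6 had an unadjusted p under 0.05. Over all miRNAs tested, 0 were called higher (0.0%) and 5 lower (0.824%), so the members' count is read against a background with few calls. The count tests on the recovered reads called none of the 6 members either, with 0 of 607 higher and 8 lower (1.32%) by edgeR and, of 600 with an adjusted p, 4 higher (0.667%) and 19 lower (3.17%) by DESeq2. Nor was any member free of overlap between the conditions, while 9.56% of all miRNAs tested were higher and 6.59% lower in all *MIR21*-KO than in all Ctrl libraries.

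The fold changes were small beside their errors. On the log2(value + 1) scale, *MIR21*-KO differed from Ctrl by 0.42 (SE 0.86, limma adjusted p = 0.832) for miR-93-5p. For miR-106b-5p the difference was 0.27 (SE 0.82, limma adjusted p = 0.905). For miR-25-3p it was -0.09 (SE 0.41, limma adjusted p = 0.938), and for miR-25-5p, the member with the lowest adjusted p, -0.46 (SE 0.51, limma adjusted p = 0.743). miR-93-3p was at 0.42 (SE 0.86) and miR-106b-3p at -0.23 (SE 0.44), both with a limma adjusted p of 0.832. The median over the members was 0.09 and that over all miRNAs tested 0.24.

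The scaling sets the zero of these fold changes. Scaling to the total of all miRNAs, of which miR-21-5p was the largest part in Ctrl, moved the median of all miRNAs tested to 1.34, and the members' differences were then all positive with a median of 1.46. With this scaling 2 members, miR-106b-3p (1.15, limma adjusted p = 0.0475) and miR-25-3p (1.30, limma adjusted p = 0.0290), were called higher, both within 0.2 of that median shift, beside 32.3% of all miRNAs tested. The 3 other scalings put the median of all miRNAs at 0.03, 0.10 and -0.02 and called no member.

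The part of the cluster in all miRNA reads other than miR-21 needs no factor per library, but it takes the total without miR-21 as its reference. In Ctrl it was 1.17% (95% Wilson interval 1.16 to 1.19), 1.10% (1.09 to 1.12) and 1.41% (1.40 to 1.43), and in *MIR21*-KO 0.989% (0.982 to 0.995), 1.18% (1.17 to 1.19) and 0.804% (0.797 to 0.812). The intervals cover counting error only. The group means were 1.23% ± 0.163 and 0.990% ± 0.187 (SD, n = 3 each), a difference of -0.24 percentage points that was not past the spread between libraries (two-sided exact permutation p = 0.3, adjusted p = 1). Adjusted over the 9 shares and ratios compared in this way, every exact permutation p was 1, and 3 libraries against 3 cannot give a p under 0.1. Within the library sets the difference was -0.33 points in each. Against this reference, 46.0% of all miRNAs tested were lower in *MIR21*-KO within both sets. In the second set the deposited sums of the cluster were higher in *MIR21*-KO (6174 and 6150) than in Ctrl 3 (5918). In the first set *MIR21*-KO 3 (5830) lay between the Ctrl libraries (7416 and 5799).

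Across the library sets the members differed by 1.50- to 5.07-fold and in opposite directions. miR-93-5p had a mean of 357 ± 43.7 in the first and of 1605 ± 257 in the second set (SD, n = 3 each), which is 4.50-fold higher. miR-93-3p was 5.07-fold higher in the second set, miR-106b-5p 3.30-fold (193 ± 100 and 636 ± 55.7) and miR-25-5p 1.55-fold. miR-106b-3p was 1.63-fold higher in the first set (1374 ± 131 and 844 ± 99.5), and miR-25-3p 1.50-fold (4400 ± 915 and 2942 ± 368).

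4 of 6 members were thus higher in every library of the second set, beside 35.1% of all miRNAs tested, and 2 were lower in every library, beside 22.1%. A lack of overlap between the sets was therefore common among all miRNAs. The higher level of both mir-93 strands and miR-106b-5p in the second set was seen under each of the 4 other scalings. miR-25-5p overlapped between the sets under 2 of them (median-of-ratios size factors and median centring). The lower level of miR-106b-3p and miR-25-3p in the second set was free of overlap in the deposited scale and these same 2 scalings, and not when libraries were scaled to totals. Scaled to the total without miR-21, the mean log2 difference, second minus first set, was still negative, at -0.43 and -0.30. Scaled to the total of all miRNAs, the mean log2 level was 0.06 and 0.20 higher in the second set.

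The ratio of the strands of a hairpin does not depend on the scaling, and it showed 2 kinds of behaviour. For mir-106b the 3p strand was the more abundant in every library, but by 10.7-, 4.72- and 1.09-fold in Ctrl, against 1.64-, 1.31- and 9.03-fold in *MIR21*-KO. The excess of 3p was at least 4.72-fold in the first set and at most 1.64-fold in the second. For mir-25 the 3p strand exceeded the 5p strand by 209-, 148- and 62.6-fold in Ctrl and by 109-, 115- and 351-fold in *MIR21*-KO, and the sets again did not overlap. For mir-93 the 5p strand was in excess, by 105-, 61.7- and 83.0-fold in Ctrl and by 64.3-, 77.6- and 103-fold in *MIR21*-KO. This ratio was similar in both sets, although both strands differed by over 4-fold between them.

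Between the conditions, the log2 ratio of 5p to 3p (with a pseudocount of 1) was -1.92 ± 1.67 in Ctrl and -1.42 ± 1.52 in *MIR21*-KO for mir-106b (SD, n = 3 each, two-sided exact permutation p = 0.9). It was 6.14 ± 0.360 and 6.14 ± 0.176 for mir-93 (n = 3 each, exact permutation p = 1). For mir-25 it was -6.91 ± 0.884 and -7.28 ± 0.916 (n = 3 each, exact permutation p = 0.7). Within the sets the mir-25 ratio was lower in *MIR21*-KO by 0.93 in the first set and 0.82 in the second on the log2 scale, and the mir-106b ratio by 0.34 and 0.43, each from 3 libraries and with no test.

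**Figure D2:**
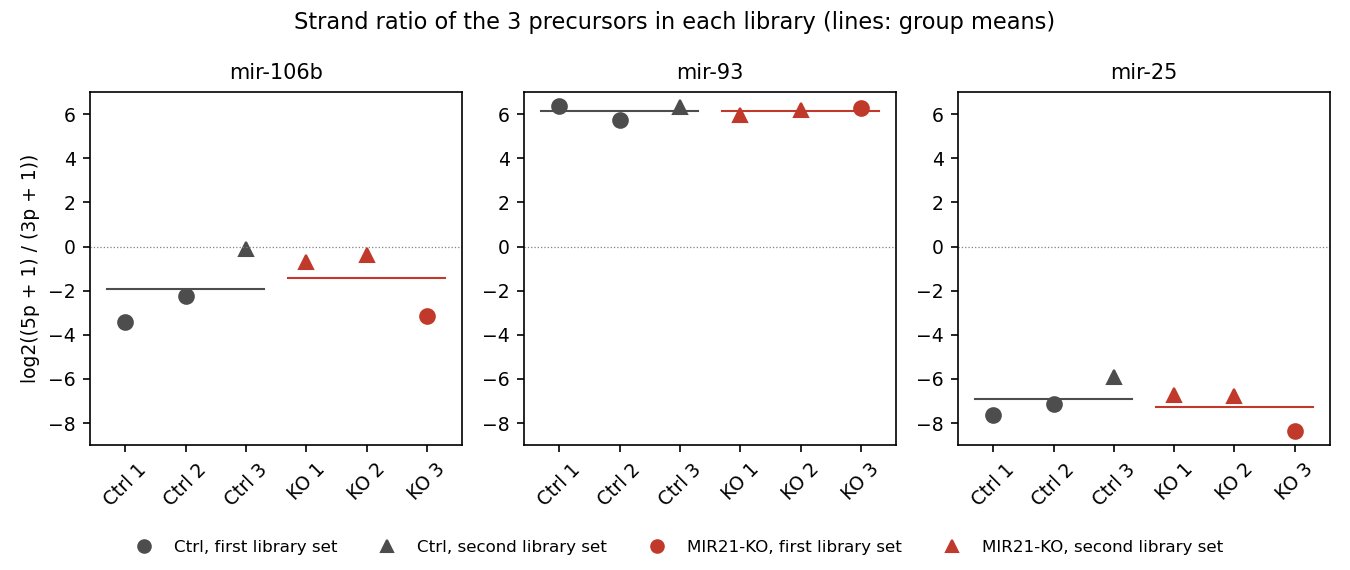
The y axis is log2((5p + 1) / (3p + 1)) of the deposited values for each precursor, with 1 point per library, the same colours and symbols as in the plot of levels, group means as lines and a dotted line at equal strands. mir-93 is level at 5.73 to 6.38, whereas mir-106b runs from -3.41 to -0.12 and mir-25 from -8.34 to -5.93, with triangles above circles in both.

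The 3 hairpins share a primary transcript, so their proportions show whether their products moved together. Counted over both strands, mir-106b gave 21.3%, 30.4% and 24.3% of the cluster's summed value in Ctrl, against 24.7%, 24.0% and 23.3% in *MIR21*-KO, with overlapping conditions and sets. mir-25 gave 73.4%, 63.2% and 43.2% in Ctrl, against 51.9%, 51.4% and 71.4% in *MIR21*-KO. mir-93 gave 5.37%, 6.43% and 32.5% in Ctrl, against 23.4%, 24.6% and 5.35% in *MIR21*-KO. The 95% Wilson intervals of these shares reached at most 0.648 percentage points to either side. mir-93 thus made up 5.35% to 6.43% of the cluster in the first set and 23.4% to 32.5% in the second, and mir-25 at least 63.2% and at most 51.9%.

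The shares did not differ between conditions beyond the spread between libraries. The mean difference, *MIR21*-KO minus Ctrl, was -1.34 points for mir-106b (n = 3 each, exact permutation p = 0.8), 3.03 for mir-93 (n = 3 each, exact permutation p = 1) and -1.70 for mir-25 (n = 3 each, exact permutation p = 0.9). Within the second set mir-93 was 8.45 points lower in *MIR21*-KO, and within the first 0.553 points lower.

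**Figure D3:**
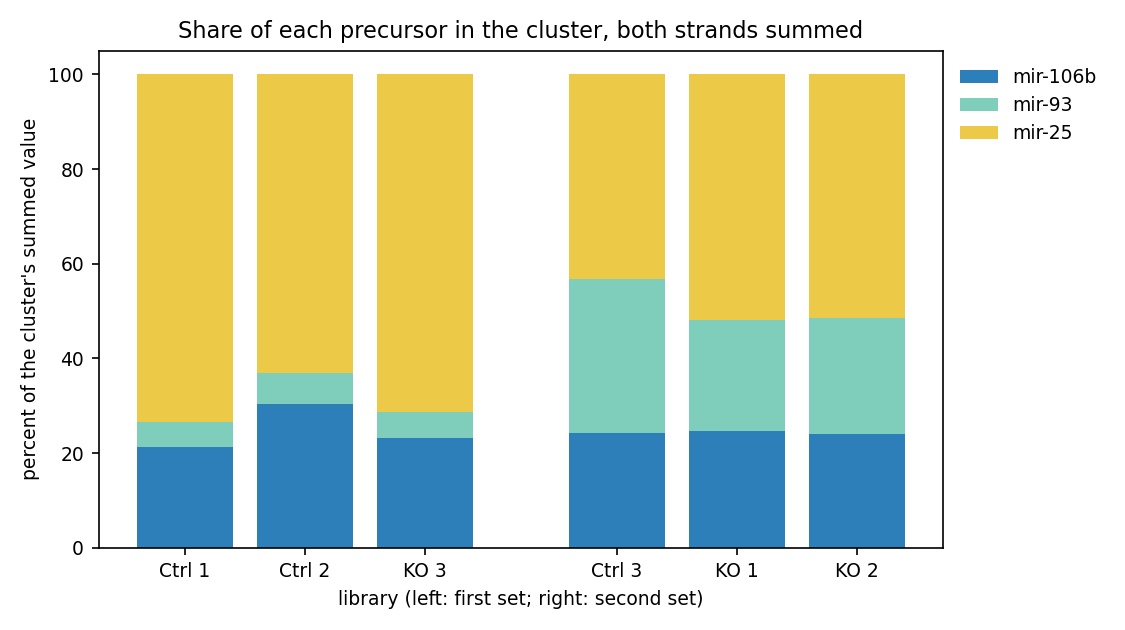
Stacked bars give the percent of the cluster's summed value from each precursor (both strands) in each library, with the first library set on the left and the second on the right. The mir-93 block is 5.35% to 6.43% on the left and 23.4% to 32.5% on the right, while the mir-106b block stays between 21.3% and 30.4%.

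Strands of different hairpins had more similar profiles than the strands of one hairpin in some cases. Likeness was measured as the root mean square difference between log2(value + 1) profiles, each centred on its own mean, over the 6 libraries, and is given as a description of these libraries. miR-25-3p and miR-106b-3p were 0.196 apart, and the ratio of their values was 3.75, 2.50 and 3.36 in Ctrl, against 3.35, 3.75 and 3.39 in *MIR21*-KO. Among 331 miRNAs whose mean value reached 10, miR-106b-3p was the second nearest to miR-25-3p, after miR-24-3p (0.105). In the other direction, miR-25-3p ranked 6 of 331 for miR-106b-3p. miR-106b-5p was 0.260 from miR-93-3p (rank 3 of 331) and 0.426 from miR-93-5p (rank 23) but 1.33 from its own 3p strand, which ranked 224. From outside the cluster, miR-487a-3p (0.188) and miR-425-3p (0.214) were nearer to miR-106b-5p than any member was. The ratio of miR-93-5p to miR-106b-5p was 2.93, 1.19 and 2.75 in Ctrl, against 2.46, 2.34 and 2.28 in *MIR21*-KO, with Ctrl 2 apart from the rest. The strands of mir-93 were 0.231 apart. These pairs were picked after their values were seen.

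The mean profile of the 6 members was most like those of miR-935 (0.107), miR-196b-5p (0.159), miR-30a-5p (0.174), miR-484 (0.199) and miR-431-5p (0.202) among 326 miRNAs outside the cluster. All of them were higher in each library of the second set, as were 4 of the 6 members, while miR-106b-3p and miR-25-3p were lower. The mean profile is thus not that of each member. Only miR-935 and miR-431-5p were also among the 5 miRNAs nearest to a single member, which was miR-25-5p for both. miR-30a-5p, an abundant miRNA in lung epithelium, was at 22029, 24533 and 40131 in Ctrl and at 41337, 39134 and 23317 in *MIR21*-KO. miR-935 was at 11.5, 14.1 and 27.7 in Ctrl and at 22.8, 22.2 and 10.8 in *MIR21*-KO.

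Since each library set holds both conditions, the conditions were also compared within the sets, with 1 library on one side each time and therefore no test. miR-25-5p was 1.03 lower in *MIR21*-KO in the first set and 0.49 lower in the second, on the log2 scale. miR-106b-5p was 0.59 and 0.18 lower, miR-93-5p 0.30 and 0.38 lower, and miR-93-3p 0.52 and 0.14 lower. miR-106b-3p was 0.24 lower in the first set and 0.25 higher in the second, and miR-25-3p 0.10 lower and 0.32 higher. Lower values within both sets were seen for 4 of 6 members and for 26.5% of all miRNAs tested.

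**Figure D4:**
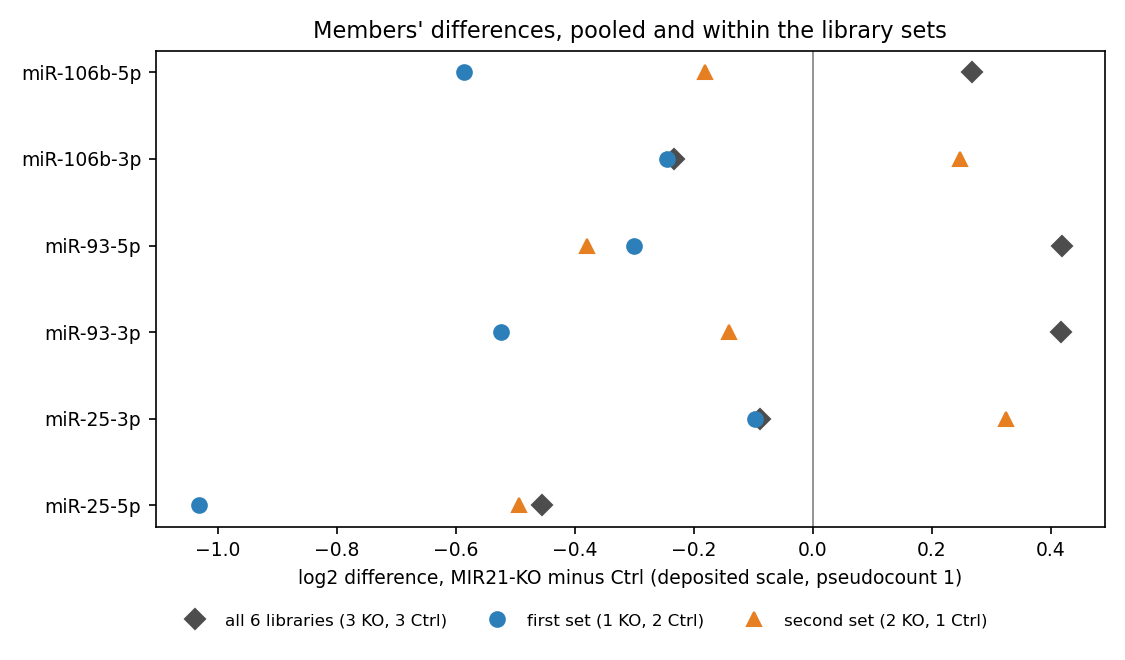
The x axis is the log2 difference between *MIR21*-KO and Ctrl for each member in the deposited scale, with diamonds for all 6 libraries and circles and triangles for the first and second library set. For miR-106b-5p, miR-93-5p and miR-93-3p the diamond lies right of 0 (0.27, 0.42 and 0.42) and both within-set values lie left of it.

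These counts depend on the scaling. 4 of 6 members were lower within both sets also with median-of-ratios size factors (32.3% of all miRNAs tested) and with median centring (32.9%). Scaled to the total without miR-21, 6 of 6 were (46.0%), and scaled to the total of all miRNAs 0 of 6 (3.62%).

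When a term for the library set was added to the limma fit, a fit chosen after the sets were seen and whose p-values rest on sets read from the same libraries, 0 of 6 members were called, beside 11.7% of all miRNAs tested called higher and 6.43% called lower. miR-25-5p came nearest, at -0.76 (SE 0.29, limma adjusted p = 0.0794), with a median over all miRNAs of 0.12. Its call depended on the tool and the scaling: edgeR with the set term gave -0.91 (adjusted p = 0.0402) and called 8.07% of all miRNAs tested lower, and limma with the set term called it lower under 3 of the 4 other scalings (adjusted p = 0.0245 to 0.0496), where 10.7% (total without miR-21), 7.08% (median-of-ratios) and 7.25% (median centring) of all miRNAs tested were called lower, but gave 0.46 (adjusted p = 0.124) when libraries were scaled to the total of all miRNAs, where the median of all miRNAs was 1.18. miR-93-5p was at -0.34 (SE 0.22, limma adjusted p = 0.336) and miR-106b-5p at -0.38 (SE 0.31, limma adjusted p = 0.436), both of the opposite sign to the fit without the term. miR-25-3p was at 0.11 (SE 0.23) and miR-106b-3p at 0.00 (SE 0.23), with limma adjusted p-values of 0.780 and 0.998.

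The seed families place the cluster among miRNAs that can pair with the same seed matches. In the miR-17 family, miR-106b-5p and miR-93-5p together gave 53.1%, 61.0% and 43.4% of the summed value in Ctrl, against 55.2%, 51.9% and 57.3% in *MIR21*-KO (95% Wilson intervals of at most 1.60 points to either side). The means were 52.5% ± 8.81 and 54.8% ± 2.74 (SD, n = 3 each, exact permutation p = 0.8), a difference of 2.32 points that was 0.30 within the first and 10.2 within the second library set. Taken as the share of each group's summed values it was 6.79 points. Nearly all of the rest came from miR-20a-5p and miR-17-5p of miR-17~92. miR-20a-5p gave 25.3% to 37.0% of the family and miR-17-5p 13.2% to 19.2%. miR-106a-5p and miR-20b-5p of miR-106a~miR-363 gave at most 0.342% and 0.0807%, and miR-519d-3p and miR-526b-3p had no read in any library, which allows up to 3 reads each.

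The split of the miR-17 family was steadier than its level. The family summed to 996, 1108 and 5964 in Ctrl and to 3624, 4113 and 775 in *MIR21*-KO. The second set was higher than the first in every library, for the members and for the relatives from chromosome 13 alike. miR-20a-5p was at 311, 280 and 2208 in Ctrl and at 995, 1252 and 226 in *MIR21*-KO, and miR-17-5p at 155, 148 and 1146 in Ctrl and at 617, 716 and 102 in *MIR21*-KO.

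In the miR-25 family, miR-25-3p gave 53.9%, 54.6% and 33.1% in Ctrl, against 50.8%, 55.2% and 56.1% in *MIR21*-KO (95% Wilson intervals of at most 0.622 points to either side). Ctrl 3 was low and the other 5 libraries lay within 50.8% to 56.1%. The means were 47.2% ± 12.2 and 54.0% ± 2.81 (SD, n = 3 each, exact permutation p = 0.5), and without Ctrl 3 the difference was -0.22 points in place of 6.83. Within the sets it was 1.84 points in the first and 19.9 in the second, where Ctrl 3 is the only Ctrl library. miR-92a-3p, the family member encoded in both paralogous clusters, gave most of the rest, with 32.6% to 51.6%. miR-32-5p gave 0.802% to 7.02% and was at 81, 91 and 534 in Ctrl and at 230, 213 and 64.4 in *MIR21*-KO. miR-92b-3p gave 3.92% to 9.45%, miR-363-3p at most 11 reads in a library, and miR-367-3p no read.

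**Figure D5:**
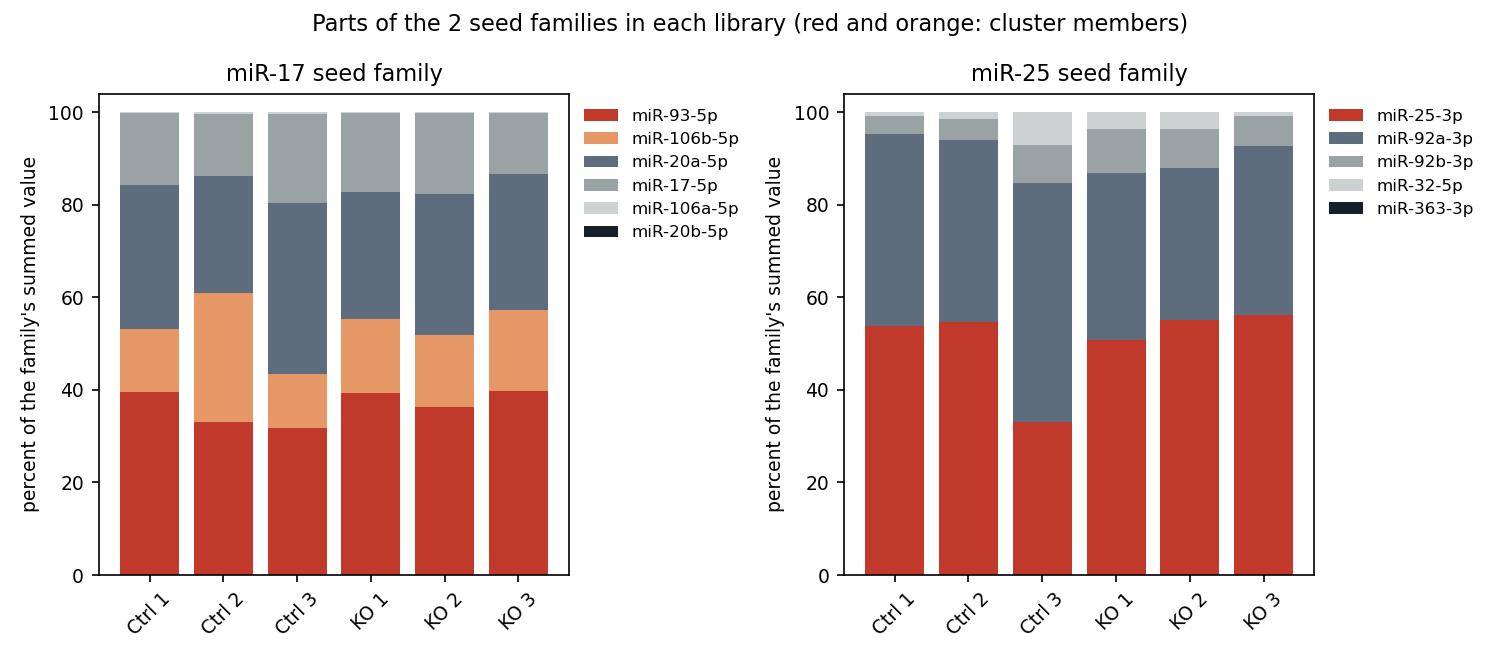
Stacked bars give, for each library, the percent of the summed value of the miR-17 seed family (left) and of the miR-25 seed family (right) that each mature miRNA contributes, with cluster members in red and orange and relatives in greys. The members' part runs from 43.4% to 61.0% on the left and from 33.1% to 56.1% on the right, and Ctrl 3 has the smallest part in both.

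The relatives and the paralogous clusters were described with the same limma fit. Outside the cluster, 4 of 6 listed miR-17 family members were tested and 0 were called (median log2 difference 0.17), and of the miR-25 family 3 of 5 were tested and 0 called (-0.11). Of miR-17~92, 11 of 12 strands were tested and 0 were called, with a median of -0.20, and of miR-106a~miR-363 4 of 12 were tested and 0 called (-0.13). The median over all miRNAs tested was 0.24. Both paralogous lists hold miR-19b-3p and miR-92a-3p, whose rows from the paralogous loci were summed.

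With the set term, miR-17~92 and the miR-106b~25 cluster stood as follows. 3 of the 11 tested strands of miR-17~92 were called lower, all 11 were negative and their median was -0.67. In the miR-106b~25 cluster 0 of 6 were called, 4 of 6 were negative and the median was -0.34. Over all miRNAs tested, this limma fit called 6.43% lower, with a median of 0.12. Its p-values rest on sets read from the same libraries. miR-19a-3p was at -1.45 (SE 0.32, limma adjusted p = 0.00752), miR-18a-5p at -1.31 (SE 0.32, limma adjusted p = 0.0134) and miR-19b-3p at -1.02 (SE 0.29, limma adjusted p = 0.0270). edgeR with the set term called 6 strands of miR-17~92 and 1 of the cluster lower, beside the 8.07% of all miRNAs. Whether the clusters differed from each other was not tested. Scaled to the total of all miRNAs, limma with the set term called 3 strands of miR-17~92 and 5 of the cluster higher, where 72.7% of all miRNAs tested were called higher and their median was 1.18.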

How the data were processed

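The authors deposited 1 table with a value per miRNA and library, a signal in CPM after TMM scaling, beside p-values, FDRs and log2 fold changes of their comparison, which were not used. The submitters' processing notes name cutadapt 1.14, Bowtie2 2.3.2, SAMtools 1.5, featureCounts 1.5.3, edgeR 3.18.1 and the build hg38. In each library 100% of the values were whole multiples of 1 read (tolerance 1e-06), so reads were recovered. TMM removes a change shared by most miRNAs, and its factors ran from 0.545 to 0.725 in Ctrl and from 1.38 to 1.91 in *MIR21*-KO. The 2813 rows were summed by name to 2588 miRNAs.

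The fit was limma 3.58.1 (R 4.3.3, lmFit and eBayes with trend) on log2(value + 1) with condition as the only term, over 607 miRNAs, two-sided, with Benjamini-Hochberg adjustment over all of them. It was also run on simulated counts without library sets, so that run does not show how the fit performs on libraries that fall into sets. Shares and strand ratios were tested between groups by exact two-sided permutation (SciPy 1.17.1). Alternatives were other pseudocounts (0.1 and 10), other filters (none, or a mean value reaching 10), 4 further scalings (total of all miRNAs, total without miR-21, median-of-ratios size factors, centring on the median miRNA), quasi-likelihood tests in edgeR 4.0.16 and Wald tests in DESeq2 1.42.0, both on the recovered reads, a replicate block, and each library left out. For 7 miRNAs the adjusted p of DESeq2 was missing. The set term and the within-set values were added knowing that the libraries fall into sets.

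The members and lists were chosen with earlier results of these data known. Named miRNAs were the 6 members, miR-21-5p and miR-21-3p, members of the seed families and paralogous clusters, and the 5 miRNAs with the profile most like the cluster's mean. Markers of other cell types (miR-122-5p and miR-124-3p) were named from their lists. The markers miR-451a, miR-143-3p, miR-145-5p, miR-200b-3p and miR-200c-3p were named after their values were seen. So were miR-24-3p, miR-487a-3p and miR-425-3p. No pair of replicates agreed within sampling noise (chi-square per degree of freedom 130 to 2560). Reads carry no molecular identifiers, so intervals and the limit of 3 reads cover counting error only. Of the RefSeq miRNA table, all 6 mature members were matched.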

Additional observations from a re-analysis of the deposited data

How the results depend on the processing

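No member was called under either pseudocount, either other filter, edgeR, DESeq2, the replicate block or with any 1 library left out, nor under 3 of the 4 other scalings. Leaving out 1 library gave log2 differences of -0.32 to 0.99 for miR-106b-5p, -0.55 to -0.07 for miR-106b-3p, 0.0065 to 1.19 for miR-93-5p, -0.064 to 1.23 for miR-93-3p, -0.36 to 0.19 for miR-25-3p and -0.68 to -0.06 for miR-25-5p, and 0 members called in each direction. miR-106b-5p turned to -0.026 with median centring and to -0.0052 with DESeq2. Scaled to the total of all miRNAs, miR-106b-3p, miR-25-3p and miR-25-5p turned to 1.15, 1.30 and 0.87, and 2 members were called higher, beside 32.3% of all miRNAs. The cause of these turns was not tested, but this total contains miR-21.

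With the set term, differences turned for miR-106b-5p (-0.38; edgeR -0.56), miR-93-5p (-0.34; edgeR -0.47), miR-93-3p (-0.33; edgeR -0.48), miR-106b-3p (0.0012; edgeR kept the sign at -0.13) and miR-25-3p (0.11; edgeR kept it at -0.03). Set term and total without miR-21 gave -0.77, -0.73 and -0.72 for miR-106b-5p, miR-93-5p and miR-93-3p and 2 members called lower (miR-93-5p and miR-25-5p), beside 10.7% of all miRNAs. Set term and median-of-ratios factors gave -0.52, -0.47 and -0.46, and set term and median centring -0.53, -0.49 and -0.47, with 1 member (miR-25-5p) called lower in each, as by edgeR with the set term (1), beside 7.08%, 7.25% and 8.07% of all miRNAs. These 2 scalings kept the negative sign of miR-106b-3p and miR-25-3p. Set term and total of all miRNAs gave 1.27, 1.38 and 0.46 for miR-106b-3p, miR-25-3p and miR-25-5p and 5 members called higher, beside 72.7%.

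The cluster's part of all miRNA reads, miR-21 included, was 0.596 points higher in *MIR21*-KO (exact permutation p = 0.1, the smallest possible, not adjusted and not among the 9 tests), the reverse of its part of the other reads, whose difference ran from -0.33 to -0.15 with 1 library left out. Leaving out 1 library moved the log2 strand ratio difference from -0.24 to 1.40 for mir-106b, from -0.21 to 0.12 for mir-93 and from -0.74 to 0.16 for mir-25, the precursor shares from -3.37 to 1.20 points for mir-106b, from -1.66 to 11.9 for mir-93 and from -10.04 to 5.03 for mir-25, and the family parts from -2.22 to 6.57 for the miR-17 and from -0.22 to 10.5 for the miR-25 seed. Within the first and second library set the mir-106b ratio turned to -0.34 and -0.43, the mir-93 share to -0.553 and -8.45 and the mir-25 share to 3.10 and 8.43. In the second set alone the mir-93 ratio turned to -0.24 and the mir-106b share to 0.029. With a pseudocount of 0.1 the mir-93 ratio difference was -0.021.

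Libraries of the same replicate number did not deviate together (correlations of -0.881, -0.706 and -0.911). Each such pair joins a library of the first set with a library of the second. The correlations thus restate the sets and cannot show whether the numbers mark paired cultures. A fit with the replicate block left the members' differences as they were, called 0 of 6 and 2 of 607 miRNAs, all lower, in place of 5. With 3 libraries a group and 2 library sets of unequal makeup, the errors of the members (SE 0.41 to 0.86) limit what could be seen, and miR-93-3p rests on as few as 14 reads.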
